A study of Mus musculus with 130 samples.

Results

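The genes described here are 9 hepatocyte genes, Alb, Afp, Apoa1, Apoa2, Ahsg, Ttr, Trf, Fgb and Hnf4a, out of the 52550 genes of the count table. They were picked by symbol, with earlier results of the same libraries in view, for their level in cells sorted as passing from G1 to S phase. Their levels by gate and day, and the ratio of that gate to the others, are therefore given as a description with no test. Tests are given only for contrasts without that gate and for genes that are not among the 9.

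RNA was sequenced from FVB/NJ mouse embryos, wild type apart from FUCCI, a pair of fluorescent proteins whose levels follow the cell cycle. Cells of whole minced embryos were taken unsorted (US) or from 4 flow gates, which the labels call BR for G0, DR for G1, YE for G1-S and GR for S-G2-M. All groups shared the strain and the reporter. The labels name 5 preparations, each with all 5 fractions. WT1 and WT2 were from E10.5, preparations 5 and 8 from E13.5, and WT3 alone from E11.5. Thus each fraction had n = 2 libraries at E10.5 and at E13.5 and 1 at E11.5, where nothing could be tested within the day. How many embryos made a preparation, and which promoter drove the reporter, are not given in these sources. The p-values below rest on the spread between preparations of a day and fraction. That spread is pooled over the groups in a fit, shared in part between genes, and may be technical.

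Hepatocytes arise from hepatoblasts, which bud from the foregut endoderm into the liver primordium and begin to secrete plasma proteins while the liver becomes the main site of blood formation in the fetus. The same plasma proteins are made earlier by the visceral endoderm of the yolk sac. Their genes are read from promoters and enhancers bound by a small set of factors, among them HNF1, HNF4, FOXA and C/EBP proteins. Alb (albumin) and Afp (alpha-fetoprotein, its fetal counterpart) encode carrier proteins of the plasma. Apoa1 and Apoa2 encode the main proteins of high-density lipoprotein, and Ahsg the plasma protein fetuin-A, an inhibitor of calcification. Ttr (transthyretin) carries thyroid hormone and the retinol-binding protein, and is also made by the choroid plexus of the brain. Trf encodes transferrin, the iron carrier of plasma, Fgb the beta chain of fibrinogen, the clotting protein, and Hnf4a a nuclear receptor that drives many liver genes.

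The promoters of 4 of the 9 genes are shown because these genes moved together and hold the searched letters of liver factors. RefSeq windows of GRCm38.p6 were at hand for 7 of the 9 genes, in 9 windows. Each line gives the 250 bases before the RefSeq start, 5′ to 3′ on the gene's own strand, with the match in capitals. In Alb (chr5:90460620-90460869, plus strand), Afp (chr5:90490464-90490713, plus strand) and Fgb (chr3:83049864-83050113, minus strand) the capitals mark GTTAAT or its reverse complement, a part of an HNF1 site. In Apoa2 (chr1:171224804-171225053, plus strand) they mark TGTTTAC, the letters of a FOXA site.
Alb: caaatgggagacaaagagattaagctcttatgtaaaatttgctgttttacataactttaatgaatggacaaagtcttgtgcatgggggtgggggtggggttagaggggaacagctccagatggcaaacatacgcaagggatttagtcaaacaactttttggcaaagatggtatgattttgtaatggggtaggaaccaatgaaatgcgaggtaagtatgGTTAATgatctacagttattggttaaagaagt
Afp: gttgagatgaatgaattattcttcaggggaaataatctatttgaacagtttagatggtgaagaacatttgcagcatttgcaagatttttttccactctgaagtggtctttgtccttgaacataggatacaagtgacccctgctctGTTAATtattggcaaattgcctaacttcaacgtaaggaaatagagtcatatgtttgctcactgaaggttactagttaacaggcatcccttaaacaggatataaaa
Fgb: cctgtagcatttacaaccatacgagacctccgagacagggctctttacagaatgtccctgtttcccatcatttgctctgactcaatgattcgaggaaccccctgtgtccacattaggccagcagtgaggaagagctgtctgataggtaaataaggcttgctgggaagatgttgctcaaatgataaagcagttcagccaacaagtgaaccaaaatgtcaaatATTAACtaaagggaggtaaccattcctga
Apoa2: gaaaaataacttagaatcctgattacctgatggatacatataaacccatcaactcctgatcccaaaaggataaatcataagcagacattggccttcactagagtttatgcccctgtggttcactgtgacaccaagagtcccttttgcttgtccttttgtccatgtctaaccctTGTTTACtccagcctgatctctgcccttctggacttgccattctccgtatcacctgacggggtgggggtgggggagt

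On either strand, GTTAAT was in 4 of the 9 windows (Alb, Afp, Fgb and 1 of the windows of Hnf4a), against 6.43% of all 32851 promoter windows of the same length. The match ended 27 bases before the start in Alb, 24 bases in Fgb, 100 bases in Afp, and 76 and 69 bases in Hnf4a, whose window held it in duplicate. The letters TGTTTAC were in 1 of the 9 windows, against 3.17% of all windows, and ended 71 bases before the start of Apoa2. CAAAGTCCA and CAAAGGTCA, both letters of HNF4 sites that share their first bases, and TTGCNNCAA, of C/EBP sites, were in 0 of the 9 windows and in 0.384%, 0.426% and 1.74% of all windows. A match is a description of letters and not a measured site.

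The libraries held from 14.7 M to 58.5 M counts each (median 22.9 M, where M is mega). The share of counts from mitochondrial genes was 0.372 to 0.701% in the 15 libraries of WT1, WT2 and WT3 and 1.66 to 3.42% in the 10 libraries of 5 and 8. These preparations also differ in how many lanes each library filled, 6 to 8 against 2. Embryonic day and this split of the preparations cannot be told apart. Levels are given as CPM (the share of a library's counts, in parts per mega), scaled between libraries by TMM factors, and a level between genes is compared per kilobase of exon.

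In unsorted cells the 9 genes rose from E10.5 to E13.5. This contrast leaves out the G1-S gate. The genes were chosen with earlier results of these libraries known, so their rise is no independent evidence. Alb went from 9.24 and 4.54 CPM in WT1 and WT2, through 3.69 CPM in WT3, to 468 and 350 CPM in preparations 5 and 8. Afp went from 121 and 66.5 CPM, through 108 CPM, to 680 and 492 CPM. The 2 genes are neighbours on chromosome 5 of GRCm38, Alb (ENSMUSG00000029368.10) from 90460897 to 90476602 and Afp (ENSMUSG00000054932.6) from 90490737 to 90508907, both on the plus strand. All 9 genes passed the test (edgeR quasi-likelihood, Benjamini-Hochberg adjusted, n = 2 against 2), against 23.2% of the 24129 genes tested that were called higher and 23.7% that were called lower. In none of the 9 genes did the 2 days overlap. The share of all genes without overlap is not given, so nothing is read from this. The sum of the 9 genes was 153 and 84.1 CPM at E10.5, 138 CPM at E11.5, and 1380 and 1010 CPM at E13.5. In bulk samples a larger number of cells of a type and more RNA per cell cannot be told apart.

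The estimates of this rise ranged from 2.07 to 7.11 on the log2 scale among the 9 genes, and differences between genes were not tested. Ahsg had the largest estimate, 7.11 ± 0.46 on the log2 scale (SE, adjusted p = 0.000108), from 3 and 9 counts at E10.5 to 660 and 406 counts at E13.5. It was at 0 counts in the unsorted library of E11.5. Alb rose by 6.06 ± 0.38 (66.5-fold, adjusted p = 0.000104), against 2.79 ± 0.32 (6.92-fold) for Afp. Ttr was at 4.38 ± 0.30, Apoa1 at 4.37 ± 0.42 and Apoa2 at 3.58 ± 0.37. Trf was at 3.09 ± 0.40. The smallest estimates were those of Afp, of the nuclear receptor gene Hnf4a, 2.24 ± 0.24, and of Fgb, 2.07 ± 0.29 (adjusted p = 0.00158). Fgb gave 0.782 and 0.889 counts per count of Alb at E10.5 and 0.0464 and 0.0595 at E13.5. Without WT1 or without WT2, 6 of the 9 genes passed the test, and Alb, Afp and Ahsg did not (adjusted p of 0.0532 to 0.127).

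Markers of other cell types moved in the same contrast. Of 16 macrophage genes tested, 14 were higher at E13.5 and none lower, and of 18 erythroid genes 13 were higher and 1 lower. Of 38 other plasma protein genes, 35 were higher and none lower, with a median log2 change of 2.61 against -0.06 over all genes. The summed level of the erythroid list in unsorted cells was 17700 to 39400 CPM at E10.5 and E11.5 and 38200 and 40600 CPM at E13.5. The part of these cell types in the rise of the 9 genes was not tested.

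The balance of albumin to alpha-fetoprotein was higher at E13.5 than at the earlier days. Day and the split of the preparations cannot be told apart in this. Unsorted cells gave 0.0765 and 0.0683 Alb counts per Afp count at E10.5, 0.0343 at E11.5, and 0.689 and 0.711 at E13.5. Per kilobase of exon the E13.5 values were 0.991 and 1.02, so the levels of both genes were about equal per length. The G1-S gate of E13.5 gave 0.725 and 0.741, with exact 95% intervals of 0.709 to 0.741 and 0.723 to 0.759. Those intervals cover counting error only, as do all intervals here. The other gates of E13.5 held far fewer counts of both genes, and their ratios were between 0.542 (0.429 to 0.683, S-G2-M of preparation 5) and 0.817 (0.616 to 1.08, G0 of preparation 5). Gates of E10.5 lay between 0.0424 and 0.291.

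**Figure D1:**
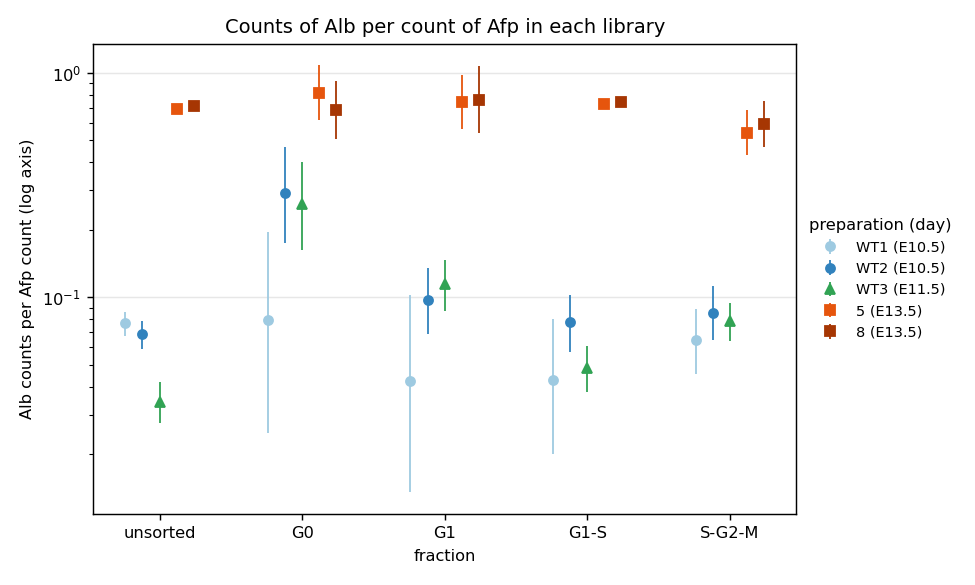
Counts of Alb per count of Afp on a log axis in each of the 25 libraries, by fraction, with 1 point per library coloured by preparation and bars for the exact 95% counting interval. All 10 libraries of E13.5 lie between 0.542 and 0.817, and the 15 libraries of E10.5 and E11.5 lie between 0.0343 and 0.291.

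At E13.5, 8 of the 9 genes had their highest gate level in G1-S, in both preparations. Over the genes with at least 10 counts in that library, G1-S was above every other gate for 24.5% in preparation 5 and 22.8% in preparation 8. The choice of the genes used these values, so nothing is read from the counts. The sum of the 9 genes in G1-S was 2100 CPM in preparation 5 and 1560 CPM in preparation 8. In the other gates the sum was 62.9 and 50.3 CPM in G0, 27.7 and 22.7 CPM in G1, and 27.6 and 35.7 CPM in S-G2-M. The 9 genes took 0.213% of all counts of the G1-S library in preparation 5 and 0.152% in preparation 8.

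**Figure D2:**
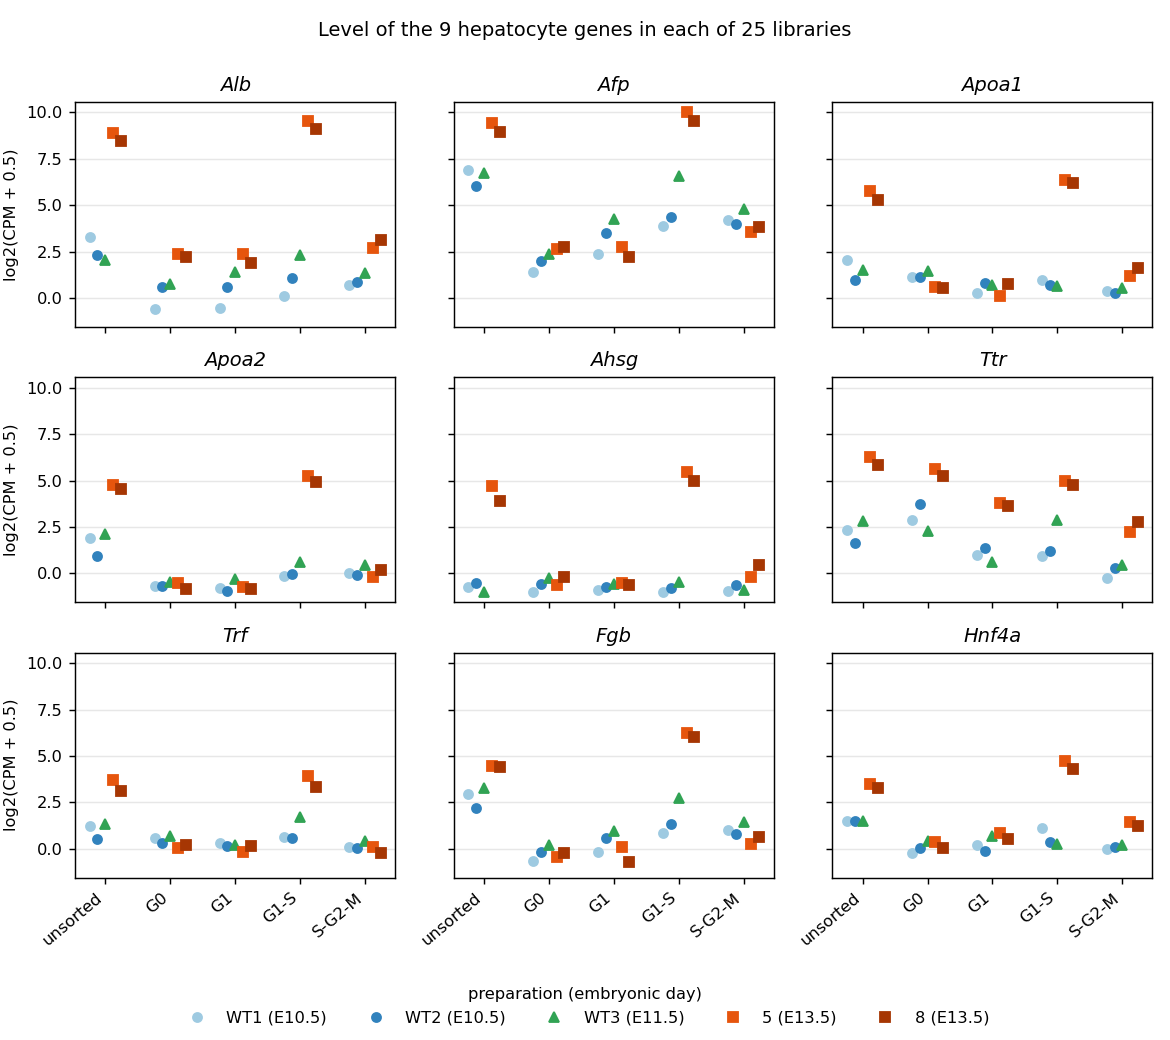
Level of each of the 9 genes as log2(CPM + 0.5) in the 25 libraries, 1 panel per gene, by fraction on the x axis, with 1 point per library coloured by preparation and shaped by embryonic day. The E13.5 points of G1-S stand above those of the other 3 gates in every panel except that of Ttr, where G0 is highest.

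The plasma carriers held the highest levels. Alb was at 755 and 556 CPM in G1-S of preparations 5 and 8, against 4.67 and 4.21 CPM in G0, 4.71 and 3.20 CPM in G1, and 6.11 and 8.26 CPM in S-G2-M. Afp was at 1040 and 751 CPM in G1-S, against 11.3 and 13.9 CPM in S-G2-M, the next highest gate. Both were thus high in 1 gate and in unsorted cells and low in 3 gates, a pattern that the choice of the genes used. The ratio of G1-S to the highest other gate was 124 (95% counting interval 103 to 150) and 67.3 (56.1 to 81.5) for Alb and 92.4 (80.8 to 106) and 54.0 (46.9 to 62.4) for Afp. Ahsg (ENSMUSG00000022868.5, chromosome 16, 22891277 to 22899449, plus strand) had 810 and 644 counts in G1-S, against 7 and 12 in S-G2-M and 3 to 7 in the G0 and G1 libraries. Its ratios were 119 (57.5 to 297) and 36.4 (20.7 to 70.7), and rested on those few counts.

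The lipoprotein genes were also highest in G1-S and next highest in S-G2-M, while the order of G0 and G1 differed between genes and preparations. Apoa1 (ENSMUSG00000032083.8, chromosome 9, 46228580 to 46230466, plus strand) was at 81.0 and 72.3 CPM in G1-S and at 1.79 and 2.54 CPM in S-G2-M. Apoa2 (ENSMUSG00000005681.12, chromosome 1, 171225054 to 171226379, plus strand) was at 37.2 and 30.1 CPM in G1-S, with 7 and 9 counts in S-G2-M, 4 and 1 in G0, and 2 and 1 in G1. Its ratio to S-G2-M was 101 (48.7 to 252) and 47.3 (24.8 to 104). That of Apoa1 was 45.2 (32.2 to 65.6) and 28.4 (20.4 to 40.8), below the ratio of Apoa2 in both preparations but within overlapping counting intervals.

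Fgb (ENSMUSG00000033831.5, chromosome 3, 83040141 to 83049863, minus strand) was the gene that stood furthest above unsorted cells. It was at 75.2 and 63.5 CPM in G1-S, 0.684 and 1.06 CPM in S-G2-M, and 21.7 and 20.8 CPM in unsorted cells. The ratio to unsorted cells was 3.46 (3.13 to 3.82) and 3.05 (2.77 to 3.37), against 1.61 (1.57 to 1.65) and 1.59 (1.55 to 1.63) for Alb and 1.53 (1.5 to 1.56) and 1.53 (1.49 to 1.56) for Afp. Per count of Alb, Fgb gave 0.0996 and 0.114 counts in G1-S and 0.0464 and 0.0595 in unsorted cells. The intervals of Fgb and Alb did not overlap in either preparation. They cover counting error only, and the choice of the genes used these ratios, so the difference between the genes was not tested.

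Hnf4a and Trf had the smallest ratios among the 8 genes. Hnf4a (ENSMUSG00000017950.16, chromosome 2, 163506808 to 163572910, plus strand) was at 25.9 and 19.1 CPM in G1-S and at 2.26 and 1.84 CPM in S-G2-M, 11.5 (8.38 to 16.0) and 10.4 (7.01 to 16.2) times apart. Its ratio to unsorted cells was 2.40 (2.07 to 2.79) and 2.10 (1.79 to 2.47). Trf (ENSMUSG00000032554.15, chromosome 9, 103204001 to 103230444, minus strand) was at 14.7 and 9.57 CPM in G1-S, 25.3 (13.9 to 51.4) and 15.1 (8.48 to 29.8) times the next gate. Against unsorted cells Trf was at 1.17 (0.988 to 1.37) and 1.16 (0.958 to 1.41), so its intervals included 1. The annotation gives 63.5% of the exon length of Trf to the predicted gene Gm20425 on the same strand, so its counts are uncertain.

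Ttr (ENSMUSG00000061808.3, chromosome 18, 20665280 to 20674321, plus strand) did not follow the other 8 genes. In G0 it had 997 and 703 counts, or 49.5 and 37 CPM, and in G1-S 572 and 559 counts, or 31 and 26.7 CPM. It fell to 13.5 and 12.1 CPM in G1 and 4.16 and 6.29 CPM in S-G2-M, and unsorted cells held 77.9 and 56.7 CPM. G1-S over G0 was 0.625 (0.563 to 0.694) and 0.722 (0.645 to 0.808), and G1-S over unsorted cells 0.398 (0.362 to 0.437) and 0.471 (0.427 to 0.519). Ttr made up 78.8% and 73.6% of the summed CPM of the 9 genes in G0, but 1.47% and 1.72% in G1-S. Across the 25 libraries the log2 level of Ttr had a Pearson correlation of 0.575 with the mean of the other 8 genes. For each of those 8 the value was 0.891 to 0.971. This is a description over libraries that share preparations and days.

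Over the 9 genes the median ratio of G1-S to the highest other gate was 92.4 in preparation 5 and 36.4 in preparation 8. A ratio above 10 was found for 0.928% and 0.666% of all genes with at least 10 counts in G1-S. Against unsorted cells 8 of the 9 genes were higher in both preparations, with medians of 1.53 and 1.59, and Ttr was lower. Among all genes 50.9% and 50.6% were above unsorted cells. Per kilobase, Alb was highest in G1-S of both preparations, at 322 and 238 CPM per kb, and Trf lowest, at 4.42 and 2.88 CPM per kb. Alb and Afp were within 1.04 and 1.07 times of each other on this scale. Ttr led the order per kilobase in G0, G1 and S-G2-M of both preparations.

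**Figure D3:**
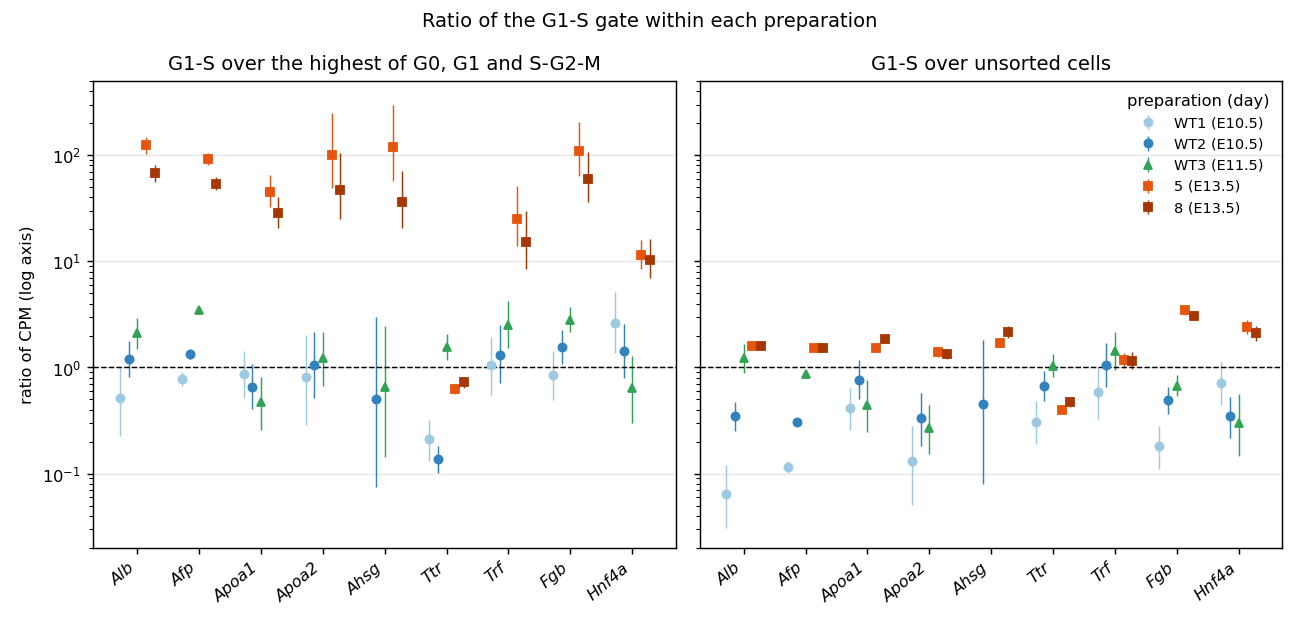
Ratio of the CPM in G1-S to that in the highest other gate (left) and in unsorted cells (right) on a log axis, for each gene, with 1 point per preparation and bars for the 95% counting interval. At E13.5 the left ratios are 10.4 to 124 for 8 genes and 0.625 and 0.722 for Ttr, and ratios with no counts behind them are not drawn.

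At E10.5 the 9 genes summed to less in each of the 4 gates than in unsorted cells. The sum of the 9 genes in G1-S was 22.0 CPM in WT1 and 29.3 CPM in WT2, beside 23.6 and 21.1 CPM in S-G2-M and 153 and 84.1 CPM in unsorted cells. Afp, which made up most of this, had 14 and 20.5 CPM in G1-S, 18.1 and 15.4 CPM in S-G2-M, and 121 and 66.5 CPM in unsorted cells. The median ratio to the highest other gate was 0.834 in WT1 and 1.20 in WT2. G1-S was the highest gate for 2 of the 9 genes in WT1 and 6 in WT2, where 27.4% and 21.3% of all genes had it highest. The medians against unsorted cells were 0.245 and 0.457, with 0 of 8 and 1 of 9 genes above unsorted cells, against 48.9% and 51.9% of all genes. Alb was at 0.595 and 1.59 CPM in G1-S, from 10 and 53 counts, and Ahsg had 0 and 3 counts there.

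The single preparation of E11.5 lay between those days for part of the genes. Afp had 93.7 CPM in G1-S, 26.9 CPM in S-G2-M, 19.0 CPM in G1, 4.66 CPM in G0 and 108 CPM in unsorted cells, a ratio of 3.48 (3.24 to 3.74) to S-G2-M. Fgb had a ratio of 2.81 (2.14 to 3.68), Trf of 2.51 (1.52 to 4.25) and Alb of 2.09 (1.48 to 2.95). Apoa1 was lower in G1-S than in G0, at 0.471 (0.259 to 0.821). G1-S was the highest gate for 6 of the 9 genes, against 25.4% of all genes, with a median ratio of 1.55. It was above unsorted cells for 3 of the 8 genes with a ratio, against 46.4% of all genes. Ahsg, left out of that count, had 4 counts in G1-S and 0 in unsorted cells.

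Ttr was already highest in G0 at E10.5. It had 199 and 291 counts in G0, or 6.78 and 12.9 CPM, against 4.62 and 2.62 CPM in unsorted cells and 0.341 to 2.04 CPM in the other gates. In WT3 the order was different, with 6.74 CPM in G1-S, 6.49 CPM in unsorted cells and 4.34 CPM in G0. At E10.5 G0 was therefore above unsorted cells for Ttr, whereas at E13.5 unsorted cells were above G0.

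Among the gates other than G1-S at E13.5, Ttr was lower in S-G2-M than in G0 by 3.06 ± 0.34 on the log2 scale (SE, n = 2 against 2, edgeR adjusted p = 1.58e-06). It was lower in G1 than in G0 by 1.75 ± 0.31 (adjusted p = 0.000568) and lower in S-G2-M than in G1 by 1.31 ± 0.34 (adjusted p = 0.0139). It was the only one of the 9 genes called in G1 against G0, where 9.11% of the 26933 genes tested were called higher and 11.1% lower. The other 8 genes had an unadjusted p of 0.0769 or more in that contrast. Without preparation 5 or without preparation 8 the adjusted p of Ttr in G1 against G0 was 0.105 and 0.0772. In S-G2-M against G1 without those preparations it was 0.618 and 0.220.

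Choroid plexus genes, which share Ttr with hepatocytes as a known product of their tissue, were counted in the same contrasts as Ttr. Of 15 such genes tested in S-G2-M against G0, 6 were lower and 1 was higher, with a median log2 change of -0.69, beside 17.6% of all genes called lower and 14.8% called higher. Kcne2, a potassium channel subunit, was at 3.53 and 2.16 CPM in G0 and 0.105 and 0.0706 CPM in S-G2-M. Kl, which encodes klotho, was at 1.94 and 1.0 CPM in G0 and 0.158 and 0.282 CPM in S-G2-M. The gene called higher was Msx1, a homeobox factor also known from other embryonic tissues, at 9.79 and 11.3 CPM in G0 and 40.6 and 42.0 CPM in S-G2-M. Kcne2 and Kl were named after their values were seen, as was Msx1 for this contrast. In G1 against G0, 2 of the 15 genes were higher and 3 lower (median -0.2), beside 9.11% of all genes called higher and 11.1% lower. In S-G2-M against G1 none was higher and 2 were lower (median -0.61), beside 6.82% called higher and 7.96% lower. The summed level of the list at E13.5 was 157 and 128 CPM in G0 and 185 and 184 CPM in G1. It was 151 and 142 CPM in S-G2-M and 118 and 122 CPM in G1-S. The sum was thus highest in G1 among the gates, whereas Ttr was highest in G0. At E10.5 the sum was 77.5 and 107 CPM in G0 of WT1 and WT2 and 132 and 159 CPM in S-G2-M. The part of such cells in the level of Ttr was not tested.

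Apoa2 and Hnf4a were called higher in S-G2-M than in G0 at E13.5, where 14.8% of all genes tested were called higher and 17.6% lower. Hnf4a, with 16 and 10 counts in G0 and 43 and 26 in S-G2-M, was higher by 1.63 ± 0.39 (edgeR adjusted p = 0.00306). Apoa2, with the 1 to 9 counts given above, was called higher by 1.90 ± 0.70 (edgeR adjusted p = 0.0429). Against G1 it was called higher by 2.62 ± 0.77 (edgeR adjusted p = 0.0272). In that contrast 6.82% of genes were called higher and 7.96% lower. Higher genes were 46.2% of the calls there, and 56.9% with RLE factors. The counts of Apoa2 were under 10 in each of these libraries, near the limit of detection, so nothing is read from its calls. The other 6 genes did not pass the test in S-G2-M against G0, and Alb was at 0.68 ± 0.54 there. Of 16 gut, lung and pancreas genes, tissues where Hnf4a is also known to be made in part, 4 were higher in S-G2-M than in G0 and none lower. Other lists moved as well: of 17 yolk sac and visceral endoderm genes 5 were higher and none lower. Of 16 hepatoblast and bile duct genes 4 were higher and 1 lower, and of 18 erythroid genes none was higher and 2 were lower. The part of such cells in the level of Hnf4a was not tested. The calls moved with the libraries in the fit: 3 of the 9 genes were called in S-G2-M against G0 in the whole fit, 6 with the E13.5 libraries alone, and 1 without preparation 5 or without preparation 8. In S-G2-M against G1 the counts were 2 in the whole fit, 6 with that day alone, and 0 without either preparation.

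Other hepatocyte genes, which were not among the 9, followed them into the G1-S gate of E13.5. Of 38 other plasma protein genes tested against G1, 35 rose and none fell, beside 7.42% of all genes called higher and 6.27% called lower. Their median log2 change was 5.55, against 0.0 over all genes. Of all calls in this contrast 54.2% were higher, and 67.5% when Gm26917 and Gm42418, predicted genes that take ribosomal RNA reads, were left out. Serpinf1, Serping1 and Hp did not pass the test. Fga, the alpha chain of fibrinogen, had 0.25 and 0.203 CPM in G1 and 73.5 and 64.4 CPM in G1-S, a log2 change of 8.22 ± 0.44 (SE, edgeR adjusted p = 1.01e-10). Itih1, a chain of the inter-alpha-trypsin inhibitor, had 0 counts in both G1 libraries and 13.9 and 11.4 CPM in G1-S, at least 92.7-fold and 75.0-fold higher when G1 is set to 3 counts in each library. The lists were drawn up with earlier results of these libraries known, so they are no independent evidence of the direction.

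Genes of lipid transport and of liver metabolism were higher in G1-S as well. Of 21 other apolipoprotein and lipid genes, 16 rose and none fell (median log2 change 3.14). Apob, the core protein of low-density lipoprotein, was at 335 and 196 CPM in G1-S and 5.76 and 4.07 CPM in G1 (5.75 ± 0.30). Of 29 metabolic enzyme genes tested, 19 rose and none fell (median 2.73). Gys2, the liver glycogen synthase, was at 8.61 and 6.70 CPM in G1-S against 0.15 and 0.102 CPM in G1 (5.87 ± 0.65). Tat, G6pc, Hao1, Cyp2e1, Cyp3a11, Cyp7a1 and Cyp8b1, enzyme genes known from the later liver, were too low in these libraries to be tested.

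Of 26 hepatic transcription factor genes tested, 6 rose and 2 fell, with a median log2 change of 0.91. Creb3l3, a membrane-bound factor of the liver, was at 6.71 and 7.18 CPM in G1-S and 0.30 and 0.305 CPM in G1 (4.5 ± 0.42). Nr1i2, the xenobiotic receptor PXR, was at 2.44 and 2.68 CPM in G1-S and 0.10 and 0.102 CPM in G1 (4.60 ± 0.54). Zfhx3, a homeobox factor known to repress Afp, was at 270 and 302 CPM in G1-S and 595 and 507 CPM in G1 (-0.95 ± 0.28, adjusted p = 0.037), and this edgeR call was lost with RLE factors (adjusted p = 0.0661), with Gm26917 and Gm42418 left out (0.0698), and without preparation 5 or without preparation 8. Of 16 hepatoblast and bile duct genes, 4 rose and 1 fell. Krt18, a keratin of simple epithelia, was at 36.8 and 41.4 CPM in G1-S against 12.9 and 10.8 CPM in G1. Its change of 1.72 ± 0.52 was close to the threshold (edgeR adjusted p = 0.0478). Sox9, a bile duct and cartilage factor, fell by 1.22 ± 0.16.

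Genes of other cell types also rose in the G1-S gate. Of 16 macrophage genes 14 rose and none fell (median log2 change 2.29), among them C1qa, a complement subunit, at 34.0 and 28.8 CPM in G1-S and 2.40 and 3.56 CPM in G1. Of 18 cardiac muscle genes 10 rose and 1 fell (median 2.90), with Myh7, a myosin heavy chain, at 243 and 263 CPM against 3.55 and 9.15 CPM. Of 14 megakaryocyte and blood progenitor genes 8 rose and 1 fell, with Ppbp, a platelet chemokine, at 14.8 and 8.80 CPM against 0.401 and 0.458 CPM. Among 18 erythroid genes 1 rose, Tfrc, the transferrin receptor (0.48 ± 0.14), and none fell. Of 17 yolk sac and visceral endoderm genes 4 rose and none fell. Of 16 gut, lung and pancreas genes 3 rose and 1 fell, of 15 choroid plexus genes none rose and 4 fell, and of 18 liver endothelial and stellate genes 3 rose and 1 fell. The summed macrophage level in G1-S was 426 and 343 CPM, against 26.7 to 91.9 CPM in the other gates, and the summed cardiac level 745 and 835 CPM against 145 to 193 CPM. The part of these cells in the level of the 9 genes was not tested.

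**Figure D4:**
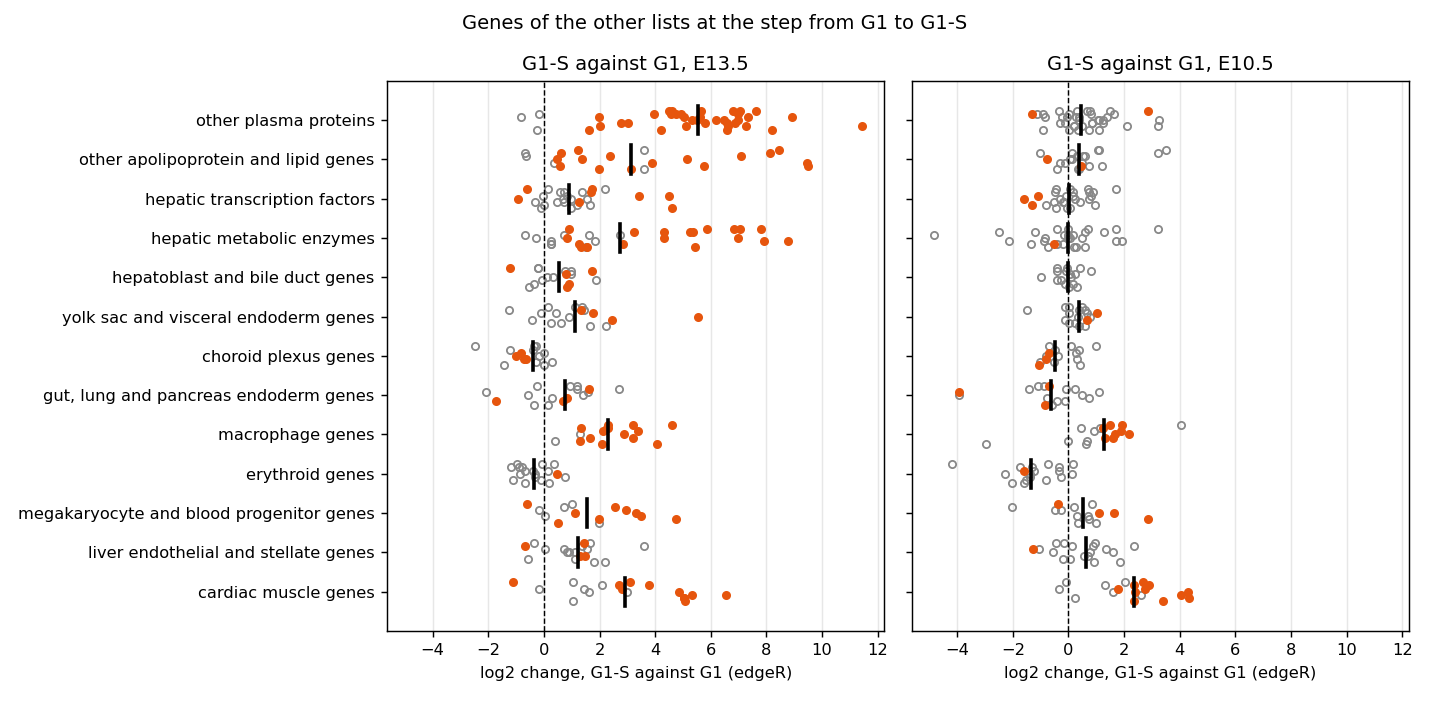
Log2 change from G1 to G1-S (edgeR) of each tested gene of 13 lists that leave out the 9 genes, at E13.5 (left) and E10.5 (right). Filled points passed the adjusted p threshold, open points did not, and black bars are list medians, 5.55 at E13.5 and 0.44 at E10.5 for the other plasma proteins.

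Against S-G2-M at E13.5, where 4.34% of all genes were called higher and 1.79% lower, 34 of 38 other plasma protein genes were higher in G1-S and none lower. For the lipid genes 13 of 21 were higher, for the enzymes 18 of 29, for the transcription factors 13 of 26 with 1 lower, for macrophage genes 15 of 16 and for cardiac genes 11 of 18 with 1 lower. This contrast shares the G1-S libraries with the contrast against G1. The counts rested on both preparations: without preparation 5 and without preparation 8, 27 and 30 of the 38 plasma protein genes were called higher against G1, and 16 and 25 against S-G2-M. The lone library of a fraction was then assumed to vary like the other groups.

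The same lists were tested at E10.5 for the step from G1 to G1-S, where 4.96% of all genes were called higher and 6.08% lower. Of the 38 other plasma protein genes 1 rose and 1 fell, of 21 lipid genes 1 rose and 1 fell, and of 29 enzymes none rose and 1 fell. Of 26 hepatic transcription factor genes none rose and 3 fell. Of 16 macrophage genes 8 rose and of 18 cardiac genes 11 rose, with none lower in either list. C1qa rose by 1.88 ± 0.27 (SE, edgeR adjusted p = 8.67e-05) and Myh7 by 4.03 ± 0.83 (adjusted p = 0.0107). With the preparation as a block, 72 of the list genes were called in this contrast instead of 41, of which 2 plasma protein genes were higher and 1 lower.

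The difference between the days was tested for the listed genes as an interaction, in which 2.63% of all genes were called higher at E13.5 and 1.63% lower. The step to G1-S was larger at E13.5 for 27 of 38 other plasma protein genes, 9 of 21 lipid genes, 7 of 26 transcription factors and 7 of 29 enzymes. Of all calls 61.6% were higher, and 71.7% with Gm26917 and Gm42418 left out. The step was smaller for 1 gene of these lists, a transcription factor. For macrophage genes it was larger in 3 of 16 cases and for cardiac genes in 1 of 18, with none smaller. Without preparation 5 and without preparation 8 the plasma protein count was 8 and 6. Day and the split of the preparations cannot be told apart here either.

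A search covered 18420 tested genes, without the 9 and without predicted genes (Gm with a number, or names ending in Rik). The genes most like the 9 over the 25 libraries were sought there, with a mean level of the 9 genes as the pattern. By Pearson correlation of log2 levels these were Fga (0.988), Plg, plasminogen (0.988), Kng1, kininogen (0.981), Fgg, the gamma chain of fibrinogen (0.98), Serpina6, which binds corticosteroids (0.979), C3 of complement (0.974), the clotting factor F12 (0.971), Spp2 (0.97), Serpina1d (0.969) and Hpx, which binds heme (0.969). The order depended on the measure: by Spearman correlation Fga, Serpina6, Plg and C3 ranked 1, 2, 4 and 7, but Hpx ranked 82, Spp2 203 and Serpina1d 416. Within the 10 libraries of E13.5, by Pearson correlation, Kng1, Fga and Plg ranked 7, 8 and 10, and Serpina6 and Hpx ranked 39 and 73. The libraries share preparations and days, so this is a description. Serpina6 was at 149 and 97.8 CPM in G1-S of preparations 5 and 8, at 91.1 and 69.4 CPM in unsorted cells, and at 0.547 to 3.11 CPM in the other gates of E13.5. Fgg was at 62.6 and 48.5 CPM in G1-S and 18.6 and 14.2 CPM in unsorted cells.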

How the data were processed

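The values are raw read counts by gene that the authors deposited in 1 table, not normalized. STAR 2.5.3, HTSeq 0.8.0 and the build mm10 are named in the submitters' processing notes. The sources used here do not give the annotation, the kit's strandedness or whether strand was used in counting. Per the labels' protocols, RNA was column-purified and depleted of ribosomal RNA. The 130 columns were lanes of 25 libraries. Between lanes of 1 library the index of dispersion, taken where 5 or more counts were expected, was 1.09 to 1.23, under the limit of 1.5, against 5.9 to 117.5 between preparations of 1 group. Lanes were summed and each library was counted once. Totals were 14.7 to 58.5 M counts. A count of 0 allows up to 3 counts, and intervals (95%) and floors cover counting error only, since no molecular identifiers are named.

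Levels are CPM with TMM factors. Tests used edgeR 4.0.16 (quasi-likelihood, robust, filterByExpr with a minimum count of 10 and a minimum total of 15), with 1 mean for each day and fraction over 25 libraries, or over the 5 unsorted libraries for the comparison of days, and an adjusted p under 0.05. The scripts were tested on simulated data. Over 14888 genes, the deviations of same-preparation libraries from their group means were compared. The correlations between fractions lay between 0.167 and 0.682 (E10.5) and between 0.164 and 0.447 (E13.5), each above 0.1, and the pairing comes from the title prefix. The preparation as a block was an alternative, as were DESeq2 1.42.0, RLE factors, no filter, leaving out each preparation, fitting 1 day alone, and leaving out Gm26917 and Gm42418, predicted genes that take reads of ribosomal RNA. Ratios are descriptions, with exact counting intervals. Locations come from GENCODE M21 (GRCm38, which mm10 names; 52403 of 52550 identifiers matched) and promoters from RefSeq. The genes named are the 9 and, of each of 13 other lists, up to 2 genes with the highest and 1 with the lowest log2 change in G1-S against G1 at E13.5 among called genes whose mean log2 CPM was 0 or more, plus the 10 most like the 9. The text gives part of them, and genes outside the rule are marked or are members of a counted list. Of 293 symbols in all lists, 291 were in the table. The members, lists and tests were chosen with earlier results of these data known. Some genes that the rule names are not reported here.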

Additional observations from a re-analysis of the deposited data

Results flagged for a closer look

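The step from G1 to G1-S differed between E13.5 and E10.5, by the edgeR test of the difference itself, for the 8 genes given here. Over all genes 2.63% were called higher and 1.63% lower. The 8 come from the genes that the naming rule picked for a called change in G1-S against G1 at E13.5. That change is part of the difference, so they are no independent evidence. Each value is the log2 change at E13.5 less that at E10.5, adjusted over all genes, from n = 2 preparations a day. Among liver genes Fga was at 7.11 (adjusted p = 0.000268), Gys2 at 6.28 (adjusted p = 0.013), Nr1i2 at 5.04 (adjusted p = 0.000223) and Apob at 5.00 (adjusted p = 4.53e-06). Creb3l3 was at 3.69 (adjusted p = 0.000614). Outside the liver lists Pf4, a platelet chemokine, was at 2.81 (adjusted p = 0.0123), C1qa at 1.52 (adjusted p = 0.0253) and Lgmn, a lysosomal protease, at 0.95 (adjusted p = 0.0123). Myh7, a cardiac gene, was at 1.28 ± 1.10 and did not pass (adjusted p = 0.614). All 8 kept their call with RLE factors, with no filter, with DESeq2, with Gm26917 and Gm42418 left out, with the replicate block and without E11.5. Without preparation 5, 3 of the 8 passed (Apob, Fga and Nr1i2), without preparation 8 Apob passed, and without WT2 all but Fga passed.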

How the results depend on the processing

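All 9 genes were called higher in unsorted cells at E13.5 under every alternative that kept WT1 and WT2, and 6 without either. Leaving out 1 preparation at a time gave 1 to 6 of the 9 genes called in S-G2-M against G0 (3 with all), 0 to 1 in G1 against G0 (1 with all) and 0 to 6 in S-G2-M against G1 (2 with all). For these counts no filter gave 7 and 7, DESeq2 6 and 4, and the fit of E13.5 alone 6 and 6, in S-G2-M against G0 and against G1. For the other lists leaving out 1 preparation gave 56 to 186 called genes in G1-S against G1 at E13.5 (134 with all), 36 to 182 in G1-S against S-G2-M (135), 19 to 83 in G1-S against G1 at E10.5 (41) and 14 to 107 in the difference between days (64). With no filter the counts of the last 2 were 76 and 100. At E10.5 the fit of that day alone gave 20, and the preparation as a block, which pairs the fractions, gave 72. The block moved no other count of calls by more than 1.5 times. Leaving out 1 preparation turned the sign of 7 changes, none of them called: Trf in S-G2-M ranged from -0.82 to 0.13 against G0 and from -0.72 to 0.58 against G1, and in G1 against G0 Alb ranged from -0.45 to 0.0, Afp from -0.6 to 0.15, Ahsg from -1.3 to 0.41, Apoa1 from -0.8 to 0.31 and Fgb from -1.86 to 1.13. The median ratio to the highest other gate was 0.673 in the lowest lane of WT2 and 0.594 to 2.70 over lanes of WT3. Against unsorted cells it was 0.142 in the lowest lane of WT1 and, in WT3 (0.773), 1.03 with plain CPM and 0.504 to 1.03 over lanes. In preparation 5 (1.53) plain CPM gave 1.57, leaving out Gm26917 and Gm42418 1.40 and the highest lane 1.58, and in preparation 8 (1.59) leaving those genes out gave 1.46. The cause was not tested, apart from the smaller number of samples, genes or counts that some of these hold. With 2 libraries a group and under 10 counts of Apoa2, Ahsg and Fgb in several gates of E13.5, differences between those gates were near the limit of detection.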
